A study of Mus musculus with 9 samples.

Results

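The Tac1-expressing VGAT+ neurons described here were single sorted cells of the developing mouse ventral midbrain in which at least 3 Tac1 counts were found. The mice carried VGAT-Cre:Ai14:Pitx3-GFP. Cells that have ever expressed VGAT (Slc32a1, the vesicular GABA transporter) keep the red protein tdTomato in these mice, and Pitx3-expressing cells carry GFP. Because the label is permanent, a red cell need not express VGAT at the time of sorting. Cells with tdTomato were sorted onto 7 plates of 384 wells (VGAT plates), 4 from E16.5 embryos and 3 from P0.5 pups, and were sequenced with SORT-seq, a plate-based CEL-seq2 method that counts mRNA molecules by random barcodes. Of 2688 wells on these plates, 1459 were kept (at least 2000 genes, at most 50000 counts and under 15% mitochondrial counts), and 58 of them held at least 3 Tac1 counts and are called Tac1 wells. The whole series holds 2034 kept wells. The other 1401 kept wells of the same plates were the comparison. All groups share the genotype, the sort for tdTomato and the dissection, and brains of several litters were used at each stage. Plates are not mapped to animals, so the plate was the replicate, and all p-values measure the spread between plates only.

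Tac1 encodes preprotachykinin, the precursor of the tachykinin peptides substance P and neurokinin A, which are cut out at pairs of basic residues and released from dense-core vesicles. Substance P acts mainly on the NK1 receptor (Tacr1), and tachykinin-containing GABAergic neurons are best known from the striatum, whose axons reach the substantia nigra. Nr4a2 (Nurr1) is an orphan nuclear receptor best known for its role in midbrain dopamine (mDA) neurons, and Nkx2-2 is a homeodomain protein of a ventral domain of the neural tube that marks GABAergic neurons of the midbrain reticular formation.

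The 2 coding stretches that give Tac1 its name as a tachykinin gene are shown because they are what defines the product of the counted mRNA. Tac1 (ENSMUSG00000061762) lies on chromosome 6 of GRCm38 from 7554879 to 7565834 on the plus strand. Each stretch covers 39 bases of 1 coding exon, printed 5′ to 3′, with the 5 codons of the shared tachykinin end in capitals, followed by the codons of the processing site. The substance P stretch starts after the first codon of the peptide.
substance P, chr6:7556735-7556773: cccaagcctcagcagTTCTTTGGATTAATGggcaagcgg
neurokinin A, chr6:7559101-7559139: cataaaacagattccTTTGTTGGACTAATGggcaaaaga
Of 4 annotated coding transcripts of Tac1, 3 held the substance P stretch and 2 the neurokinin A stretch. The counts do not tell these transcripts apart.

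Tac1 wells were present on every VGAT plate and made up a few percent of the kept wells. At E16.5 they were 5 of 190, 11 of 228, 13 of 303 and 8 of 304 wells (2.63%, 4.82%, 4.29% and 2.63% on replicates 1 to 4). At P0.5 they were 5 of 44, 9 of 219 and 7 of 171 wells (11.4%, 4.11% and 4.09% on replicates 1 to 3). The exact (Clopper-Pearson) 95% interval of the highest share ran from 3.79% to 24.6% and covers counting error only, and the intervals of all plates overlapped. The mean share was 3.59% ± 1.13 (SD, n = 4) at E16.5 and 6.52% ± 4.19 (SD, n = 3) at P0.5. The difference of 2.93 percentage points had p = 0.343 in a two-sided exact permutation test, whose smallest possible p is 0.0571 with 4 plates against 3, and it was 0.507 points without P0.5 replicate 1.

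The Tac1 level varied widely among the Tac1 wells. The wells held between 3 and 133 Tac1 counts, with a plate median of 3, 12, 5 and 9.5 counts on E16.5 replicates 1 to 4 and of 33, 8 and 5 counts on P0.5 replicates 1 to 3. They took between 48.9% and 93.3% of all Tac1 counts of their plate, although 1242 of the 1459 wells held no Tac1 count at all. Just outside the limit, 29 wells held 2 counts and 130 held 1, and just inside it 14 held 3 and 5 held 4. Only 3 of the Tac1 wells had a count in a Tac1 intron. The wells were chosen by these Tac1 counts, which are given as a description.

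**Figure D1:**
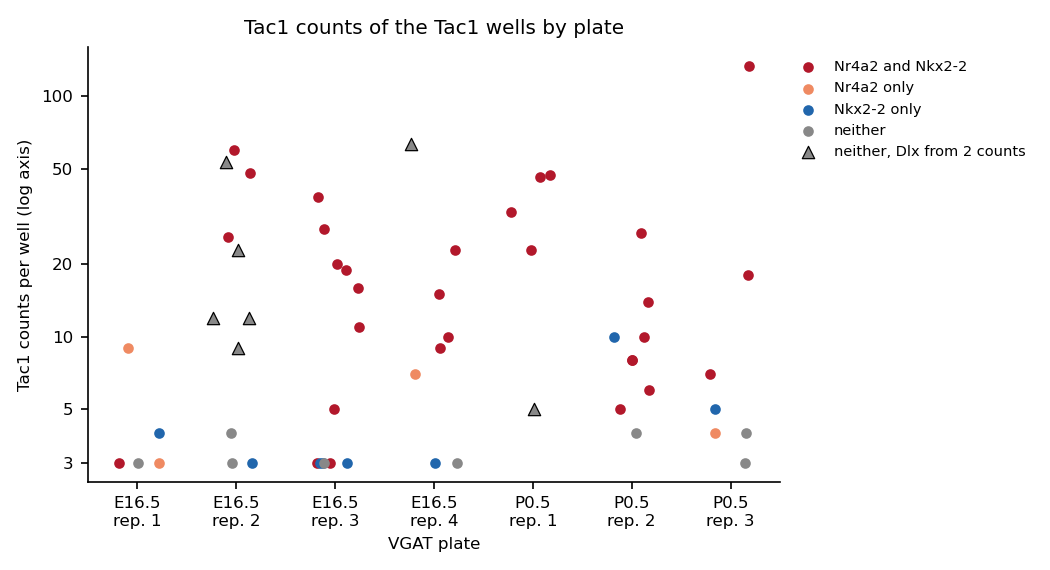
Tac1 counts (log axis) of each of the 58 Tac1 wells by VGAT plate, coloured by whether the well also held Nr4a2 and Nkx2-2 counts, with triangles for wells with at least 2 counts of Dlx1, Dlx2, Dlx5 and Dlx6 together. The well with most Tac1 held 133 counts (P0.5 replicate 3), and the wells with both genes had a median of 16 counts.

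The plates held between 1435919 and 5408710 counts in their kept wells. The median count of the Tac1 wells was above that of the other wells of the plate on 5 of 7 plates, and below it on P0.5 replicate 2 (4810 against 7349) and P0.5 replicate 1 (32096 against 33521). No doublet caller was run, and 3 Tac1 wells held over 2 times the median count of their plate. As a background for stray molecules, the 175 kept wells with at least 5 Pax5 counts and under 3 Tac1 counts were taken, since Pax5 marks another GABAergic type. Their median depth was 19588 counts against 19499 in the Tac1 wells, and they held a count of Tac1 in 13 wells (7.43%), of Nr4a2 in 10 (5.71%) and of Nkx2-2 in 20 (11.4%).

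The Tac1 wells carried the genes of GABAergic neurons. Gad2 was found in 58, Gad1 in 56 and Slc32a1 in 46 of the 58 wells, of which Gad1 and Gad2 encode the GABA-synthesising enzymes. Of the 3 vesicular glutamate transporter genes, Slc17a6 and Slc17a7 were at 0 in all 58 wells. The third, Slc17a8, stood at 40.5 CPM (each gene's counts over all counts of the class, scaled to 1e+06) in the Tac1 wells of P0.5 replicate 3. It stood at 8.60 CPM on E16.5 replicate 1, at 6.35 CPM on P0.5 replicate 1 and at 0 on the other plates. In the other wells of a plate the 3 genes summed to between 1.94 and 24.7 CPM. All 9 genes of the list for serotonin, noradrenaline and acetylcholine neurons (such as Tph2, Fev, Dbh and Chat) were at 0 in the Tac1 wells. The dopamine transporter gene Slc6a3 and the mDA genes Pitx3, Lmx1a, Lmx1b and Aldh1a1 were at 0, and Th, the rate-limiting enzyme of dopamine synthesis, gave at most 1 count, in 2 wells. The 9 markers of astrocytes and radial glia summed to between 0 and 127 CPM in the Tac1 wells of a plate and to between 90.2 and 502 CPM in the other wells, with Slc1a3, Aqp4 and Gfap at 0 in the Tac1 wells. Lists of microglia, blood vessel cells, dividing cells and red blood cells reached at most 18.2 CPM in the Tac1 wells of any plate. This value came from the blood vessel list, which reached at most 9.20 CPM in the other wells. The 6 genes of the oligodendrocyte lineage summed to between 13.2 and 159 CPM in the Tac1 wells of a plate, highest on P0.5 replicate 2. In the other wells they summed to between 46.3 and 88.6 CPM.

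The Tac1 wells were a mixture, and its largest share held both Nr4a2 and Nkx2-2. Of the 58 wells, 31 (53.4%) held counts of both genes, 4 of Nr4a2 alone, 8 of Nkx2-2 alone and 15 of neither. The wells with both genes were found on every plate (1, 3, 9 and 4 at E16.5, and 4, 7 and 3 at P0.5) and had the highest Tac1 counts, with a median of 16 and a range of 3 to 133. In these 31 wells Nr4a2 ranged from 1 to 63 counts with a median of 23, and Gata3, a transcription factor gene of midbrain GABAergic neurons, was found in 29 wells, Foxp1 in 30 and the protocadherin gene Pcdh11x in 29. Of the 27 Tac1 wells with at least 10 Tac1 counts, 21 held both Nr4a2 and Nkx2-2.

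The 8 wells with Nkx2-2 alone had low Tac1 counts, with a median of 3 and a maximum of 10. All 8 held Six3, a transcription factor gene of the anterior substantia nigra pars reticulata (SNr), with a median of 19.5 counts, and 7 held Otx2. Across all Tac1 wells, 10 had at least 5 Six3 and at least 2 Otx2 counts, and none of these had over 5 Tac1 counts. Among all VGAT wells, at least 5 Six3 counts were found in 22.4% of the Tac1 wells and 26.8% of the other wells, and at least 2 Otx2 counts in 20.7% and 19.4%. Of the 10 wells with both, 8 held Nkx2-2, 1 held Nr4a2 and 5 held at least 20 counts of Tcf7l2, a transcription factor of Wnt signalling. Wells with this pattern lay close to the limit that chose the Tac1 wells. Of the 14 wells with exactly 3 Tac1 counts, 64.3% had at least 5 Six3 counts and 28.6% a count of Nr4a2, and of the 29 wells with 2 Tac1 counts, 31.0% had at least 5 Six3 counts and 3.45% a count of Nr4a2.

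Among the 15 wells with neither gene, 7 held Dlx genes. They held at least 2 counts in sum of Dlx1, Dlx2, Dlx5 and Dlx6, homeobox genes of forebrain and hypothalamic GABAergic neurons, and no count of Nr4a2 or Nkx2-2. Their Tac1 counts were high, with a median of 12 and a range of 5 to 63. Of these 7 wells, 5 came from E16.5 replicate 2, 1 from E16.5 replicate 4 and 1 from P0.5 replicate 1. Wells with at least 2 counts of these Dlx genes made up 12.1% of the Tac1 wells and 9.35% of the other wells (131 of 1401), 60 of them on E16.5 replicate 2, so that their share was near that of the other wells. Isl1, a LIM homeobox gene, was found in 6 of the 7 Tac1 wells, which held 52 of the 67 Isl1 counts of all Tac1 wells, and Gata3 was found in 2.

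**Figure D2:**
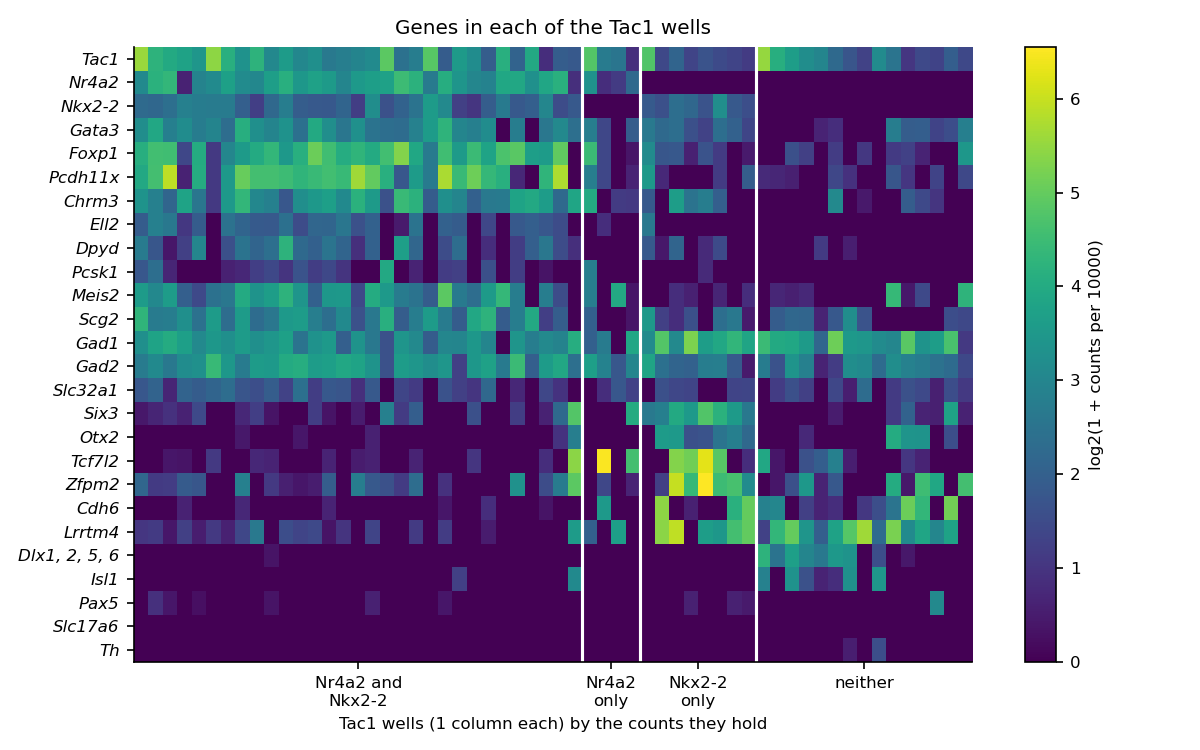
Level of 26 genes or gene sums in each of the 58 Tac1 wells (columns), as log2(1 + counts per 10000 counts of the well), with wells ordered by whether they held Nr4a2 and Nkx2-2. Foxp1, Pcdh11x and Chrm3 run through the left block, Six3 and Otx2 are brightest in the Nkx2-2 block, and the Dlx genes and Isl1 lie in the right block.

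Nr4a2 was found in a far larger share of the Tac1 wells than of the other wells of the same plate. To compare shares at equal depth, each well was thinned to 4000 counts, which kept 53 Tac1 wells and 1355 other wells. The share of wells with Nr4a2 was then 50.0%, 27.3%, 69.2% and 50.0% in the Tac1 wells of E16.5 replicates 1 to 4 and 60.0%, 80.0% and 57.1% in those of P0.5 replicates 1 to 3. In the other wells it was at most 7.26% on any plate, so that the ranges did not overlap. The mean was 56.2% ± 16.7 against 3.17% ± 2.21 (SD, n = 7 plates), a difference of 53.1 percentage points. All 7 plates had the higher share in the Tac1 wells, with p = 0.0156, the smallest that an exact sign-flip test over 7 plates can give. Without thinning, the shares were 62.0% and 8.92%.

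The difference for Nkx2-2 was smaller. After thinning, Nkx2-2 was found in 50.0%, 18.2%, 84.6% and 62.5% of the Tac1 wells at E16.5 and in 60.0%, 40.0% and 42.9% at P0.5, against between 12.3% and 31.2% of the other wells. On E16.5 replicate 2 the Tac1 wells were below the other wells (18.2% against 19.4%), and on the other 6 plates they were above. The order on that plate was not the same at every setting. With wells thinned to 8000 counts, which kept 50 Tac1 wells and 1126 other wells, the shares there were 36.4% and 23.4%, and all 7 plates were higher in the Tac1 wells (p = 0.0156 in the exact sign-flip test). Without thinning they were 36.4% and 36.9%, and 6 of 7 plates were higher (p = 0.0312 in the exact sign-flip test). With 4000 counts a well, the mean was 51.2% ± 20.9 against 18.6% ± 6.10 (SD, n = 7 plates), with p = 0.0312 in the two-sided exact sign-flip test. With any one of the other 6 plates left out, the p was 0.0625 and the difference between 26.6 and 34.0 points. Both genes were given as markers of these neurons with earlier results of these data known, so that neither test is independent evidence for them.

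Read in the other direction, Tac1 went with the 2 genes jointly more than with either alone. Of 39 VGAT wells with at least 5 Nr4a2 counts and a count of Nkx2-2, 27 (69.2%, exact 95% interval 52.4% to 83.0%) were Tac1 wells. Of 19 wells with at least 5 Nr4a2 counts but no Nkx2-2, 1 was a Tac1 well (5.26%, 0.133% to 26.0%). Of all 532 wells with Nkx2-2, with or without Nr4a2, 39 were Tac1 wells (7.33%), and of 1325 wells without Nr4a2, 23 were (1.74%). Wells with Nkx2-2 but no Nr4a2 count were 8 Tac1 wells and 459 other wells. With at least 1 count of both genes there were 31 Tac1 wells and 34 other wells, and with Nr4a2 but no Nkx2-2 there were 4 and 65. The limit of 5 Nr4a2 counts was chosen after the values were seen, wells of a plate share their library, and the values are a description with no test.

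**Figure D3:**
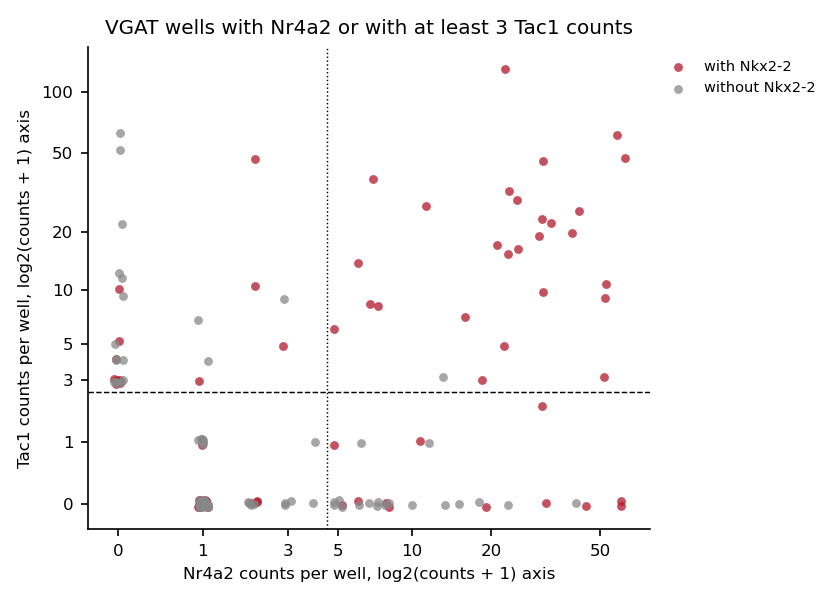
Tac1 against Nr4a2 counts per well (both axes log2(counts + 1), points shifted slightly at random) for the VGAT wells with an Nr4a2 count or at least 3 Tac1 counts, red with and grey without an Nkx2-2 count. Above the dashed line lie the 58 Tac1 wells, and of the 28 that also lie right of the dotted line (at least 5 Nr4a2 counts) 27 are red.

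The Tac1 wells were then compared with the other kept wells within plates over all genes, to ask which genes go with Tac1. For this, the counts of each class were summed on each plate, Tac1 was left out, and edgeR's quasi-likelihood test was run with the plate as a block. Of 9425 genes tested, 405 (4.3%) passed an adjusted p of 0.05, 162 (1.72%) higher and 243 (2.58%) lower in the Tac1 wells. Levels are CPM scaled by the TMM factors of the fit, as mean ± SD over the 7 plates, and fold changes are log2 values with their standard error.

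The genes that rose most encode a transcription factor, a transcription elongation factor, a prohormone convertase and cell-surface proteins. Nr4a2 stood at 592, 593, 897 and 937 CPM in the Tac1 wells of E16.5 replicates 1 to 4 and at 570, 687 and 397 CPM in those of P0.5 replicates 1 to 3. In the other wells it stood between 9.55 and 73.7 CPM, below every value of the Tac1 wells. Its log2 fold change was 5.19 ± 0.30 (edgeR, adjusted p = 2.59e-09).

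Ell2, a subunit of the super elongation complex of RNA polymerase II, was the next. It stood at 79.6, 170, 171 and 226 CPM in the Tac1 wells at E16.5 and at 205, 151 and 179 CPM at P0.5, and at 1.54 to 10.1 CPM in the other wells, with a log2 fold change of 4.82 ± 0.30 (edgeR, adjusted p = 5.22e-09). Pcsk1, a prohormone convertase that cuts peptide precursors in secretory granules, stood at 26.5 to 168 CPM against 3.04 to 7.04 CPM, a log2 fold change of 3.54 ± 0.29 (edgeR, adjusted p = 1.45e-07). Dpyd, the first enzyme of pyrimidine breakdown, stood at 94.0 to 365 CPM against 12.3 to 38.6 CPM, a log2 fold change of 3.22 ± 0.24 (edgeR, adjusted p = 3.95e-08). For each of these genes the 2 classes did not overlap between any plates.

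The 10 genes with the largest rise on every plate also included Vegfc (log2 2.70), which encodes a growth factor of lymphatic vessels, Myo3b (2.62), an unconventional myosin, Pex5l (2.60), which encodes the HCN channel subunit TRIP8b, Pcdh11x (2.26) and Dpy19l1 (2.19), a C-mannosyltransferase. Their adjusted p in edgeR lay between 3.95e-08 and 4.02e-05. Ell2, Pex5l, Pcdh11x, Myo3b, Dpyd and Dpy19l1 overlap other annotated genes, and the strand used in counting is not given in the sources used here, so that reads of such neighbours cannot be told apart from theirs. Nkx2-2, which has an antisense partner, rose as well, from 92.6 ± 34.2 to 293 ± 108 CPM (log2 1.65 ± 0.16, adjusted p = 1.36e-06 in edgeR, higher on 7 of 7 plates). With wells from 1 Tac1 count it did not pass (0.50, adjusted p = 0.122 in edgeR), nor in only the Tac1 wells without Nr4a2 (0.28, adjusted p = 0.964).

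**Figure D4:**
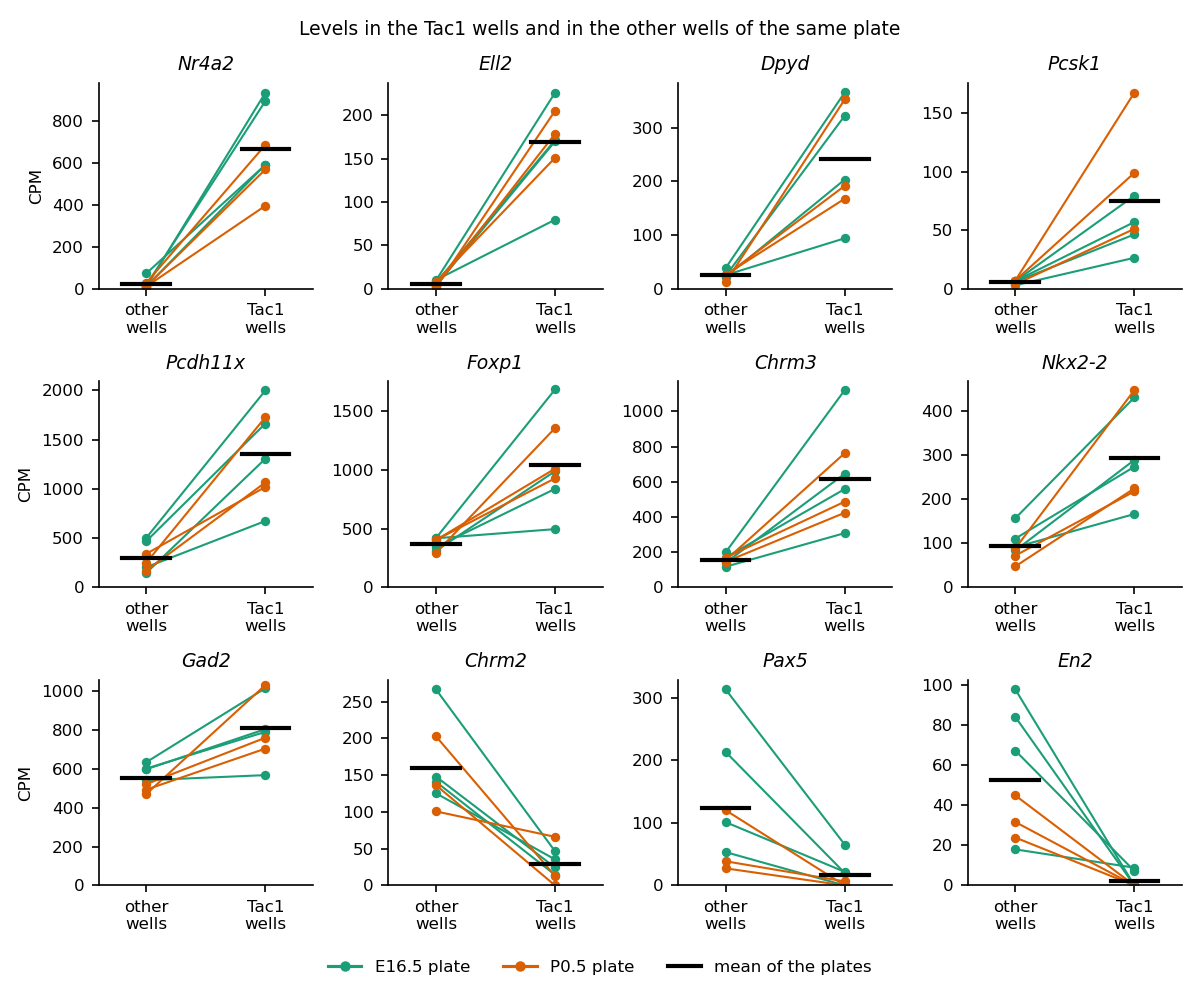
Levels (TMM-scaled CPM, linear axes) of 12 genes in the Tac1 wells and in the other wells of the same plate, with a line for each of the 7 plates and a bar for their mean. Nr4a2, Ell2, Dpyd and Pcsk1 were higher in the Tac1 wells on every plate, Gad2 was too by a smaller amount, and Chrm2, Pax5 and En2 were lower on every plate.

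The 10 genes that fell most on every plate were nearly absent from the Tac1 wells. En2, an engrailed homeobox gene of the midbrain and anterior hindbrain, had 3 counts in all Tac1 wells and 1500 in the other wells, which is 4.36% of the level there (exact 95% interval 0.897% to 12.8%, counting error only). The genes A330008L17Rik, Sema3e, Maf, Sox21, Tmem132c, Cdh20, Dock10, Cdh23 and Otx1 made up the rest of the 10 largest falls. Of these, Sox21 (log2 -3.39) is a marker of the Pax5+ SNr type, Otx1 (-2.97) a homeobox gene of the midbrain, Sema3e (-3.58) an axon guidance cue, and Cdh20 (-3.21) and Cdh23 (-2.98) encode cadherins. All of them rest on 10 or fewer counts in the Tac1 wells and were at 0 there on at least 3 of 7 plates.

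By the lists of marker genes, the genes of the neighbouring GABAergic types fell or did not pass, with exceptions that rose. Of 6 tested genes of the Pax5+ SNr type, 4 fell, among them Pax5 (log2 -2.69), Sox21 and Bcl11b (-1.82), Irs4, an insulin receptor substrate, rose (1.17 ± 0.32, adjusted p = 0.0368 in edgeR), and Pou3f2 did not pass. Without the plate block neither Pax5 (-2.52, adjusted p = 0.0773 in edgeR) nor Bcl11b (-1.60, adjusted p = 0.144) passed, and Bcl11b did not pass with wells thinned to 4000 counts (-1.60, adjusted p = 0.0900) either. Of 8 tested genes of the Six3+ SNr type, Foxp1 rose, Nr2f2 fell (-1.58, and -1.37 with no call without the plate block) and 6 did not pass, among them Six3 (-0.81 ± 0.25, adjusted p = 0.0742 in edgeR). Six3 passed without E16.5 replicate 1 or 3 and with only the Nr4a2 wells (-1.48, adjusted p = 0.000355 in edgeR). It also passed with wells from 5 Tac1 counts (-2.31, adjusted p = 2.65e-07 in edgeR), a fit that lacked E16.5 replicate 1 too. Foxp1, a forkhead transcription factor gene, stood at 495, 839, 1688 and 990 CPM in the Tac1 wells at E16.5 and at 929, 1358 and 1011 CPM at P0.5, above the range of 292 to 419 CPM in the other wells (log2 1.44 ± 0.16). The medians of the 2 lists were -2.14 and -0.61, beside -0.0015 over all genes tested.

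All 6 tested genes of the list for midbrain reticular neurons changed, in opposite directions. Nr4a2, Nkx2-2 and Chrm3 rose, and Npy, Chrm2 and Otx1 fell. The 2 muscarinic acetylcholine receptor genes of this list moved apart. Chrm3, the Gq-coupled M3 receptor, stood at 307 to 1121 CPM in the Tac1 wells against 116 to 198 CPM in the others, higher on 7 of 7 plates (log2 1.92 ± 0.14, adjusted p = 3.95e-08 in edgeR). Chrm2, the Gi-coupled M2 receptor, stood at 0 to 66.1 CPM against 101 to 267 CPM, lower on 7 of 7 plates (log2 -2.45 ± 0.28, adjusted p = 1.03e-05 in edgeR). Among 10 tested genes of monoamine, muscarinic and opioid receptors, these 2 and Htr2c, the serotonin 2C receptor (-2.75), passed, and 7 did not. The list was drawn up for cells of these samples with earlier results known, so that its count is no independent evidence of direction.

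Genes of peptide processing and dense-core vesicles were all 20 detected, and they did not move one way. Pcsk1, Pcsk1n (proSAAS, which inhibits the convertase encoded by Pcsk1; log2 0.61 ± 0.11), Scg2 (secretogranin II; 0.95 ± 0.20) and Syt4 (synaptotagmin 4; 0.70 ± 0.12) rose. Pcsk2, the other neuronal convertase (-1.13 ± 0.24), Vgf (-0.92 ± 0.24), Cadps2 (-0.79 ± 0.22) and the vesicle GTPase gene Rab3c (-0.74 ± 0.13) fell. Without the plate block Pcsk1n (0.65), Rab3c (-0.70) and Syt4 (0.75) did not pass, nor did Pcsk1n (0.55) and Rab3c (-0.67) with wells thinned to 4000 counts. The other 12, among them Cpe (0.09) and Pam (-0.58), the enzymes of carboxypeptidase trimming and of amidation, did not pass, and the median of the list was -0.11. The 2 convertase genes thus changed in opposite directions, Pcsk1 from 5.72 ± 1.61 to 75.4 ± 47.0 CPM and Pcsk2 from 102 to 48.1 CPM.

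No other neuropeptide gene rose with Tac1. Of 40 in the list, 7 passed the filter on low counts, and Npy (log2 -2.21), Sst (-1.89) and Cbln4 (-1.31) fell. Cbln4 did not pass without E16.5 replicate 2 or with wells thinned to 4000 counts (-0.40, adjusted p = 0.822 in edgeR), and Npy did not pass without the plate block (-2.26, adjusted p = 0.265). Sst, somatostatin, stood at 301 CPM in the Tac1 wells of E16.5 replicate 1, where 1 well held 30 Sst counts, and at 6.61 to 83.8 CPM on the other plates. Without the Dlx wells Sst did not pass (log2 -1.24, adjusted p = 0.112 in edgeR), and it did not pass without the plate block (-1.94, adjusted p = 0.0924). Penk, the enkephalin precursor, did not pass (-0.32 ± 0.36) and reached at least 5 counts in 4 Tac1 wells. Of the other tachykinin genes and receptors, Tac2 and Tacr2 were at 0 in the Tac1 wells, and none of the list of 6 besides Tac1 reached the filter.

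The genes of GABA synthesis and transport changed little. Gad2 rose from 551 ± 61.2 to 810 ± 165 CPM, on 7 of 7 plates (log2 0.54 ± 0.11, adjusted p = 0.00565 in edgeR), and with wells thinned to 4000 counts its fold change was 0.52 (adjusted p = 0.112). Gad1 (0.02 ± 0.11, adjusted p = 0.972) and Slc32a1 (-0.32 ± 0.15, adjusted p = 0.374) did not pass, and neither did the transporter genes Slc6a9 and Slc6a11 or Abat. The GABAergic selector genes Gata3 (-0.04 ± 0.12), Gata2 (0.28 ± 0.27) and Tal1 (-0.11 ± 0.14) did not pass. Of 12 tested selector genes of midbrain GABAergic neurons, Sox14 (-1.75) and Ebf3 (-2.61) fell and 10 did not pass.

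The remaining lists gave few calls. Isl1, of the list for hypothalamic and forebrain neurons, rose (log2 1.69 ± 0.40, adjusted p = 0.0159 in edgeR) and was higher on 5 of 7 plates, but did not pass without E16.5 replicate 3, P0.5 replicate 1 or P0.5 replicate 2, without the plate block (1.71), or with wells from 5 Tac1 counts (1.54). Of 6 tested genes of dopamine neurons, Nr4a2 rose, En1 (-2.09) and En2 fell, and Ddc, Foxa2 and Ret did not pass. One tested gene fell in each of the lists for interpeduncular (Sox14), hindbrain (Lamp5, -2.19) and VTA GABA neurons (Neurod6, -3.17), for calcium-binding proteins (Hpca, -1.05) and for astrocytes and radial glia (Sox2, -1.34). None of 5 tested immediate early genes and none of 2 tested oligodendrocyte genes passed, and no gene of the lists for glutamate release, microglia, blood vessels, dividing cells and red blood cells reached the filter.

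Which genes went with Tac1 depended on which Tac1 wells were compared, and this was looked at after seeing the parts described above. With only the 35 Tac1 wells that held Nr4a2, 685 genes passed in edgeR, of which 374 were among the 405 (92.3% of these and 54.6% of the 685). Of the 23 wells without Nr4a2, 1 was the only such well on P0.5 replicate 1 and did not enter. With only the others, 92 genes passed, of which 50 were among the 405 (12.3% and 54.3%), 42 of them in the same direction. Foxp1 fell in this second comparison (log2 -1.54, adjusted p = 0.000243), as did Pcdh11x (-1.54, adjusted p = 0.000653) and Gata3 (-1.56, adjusted p = 4.3e-05), whereas Isl1 rose (2.37). Among genes called over all Tac1 wells, Nkx2-2 (0.28), Chrm3 (-0.09), Dpyd (0.20), Gad2 (-0.53), Pcsk1n (-0.24), Syt4 (0.20), Rab3c (-0.71), Bcl11b (-0.51), Npy (-1.87), Cbln4 (-0.14) and En1 (-1.55) did not pass there, with adjusted p of at least 0.114 in edgeR, and Pax5 (-1.99), Htr2c (-3.51) and Sst (-3.77) fell in both. In the wells without Nr4a2, Dpy19l1 (-0.41), Pex5l (1.38), Cdh20 (-2.80), Cdh23 (-1.34), A330008L17Rik (-2.18) and Tmem132c (-2.58) did not pass either. Their adjusted p was at least 0.0516 in edgeR. With wells from 1 Tac1 count, Nkx2-2, Gad2, Pcsk1n, Syt4, Npy, Sst, Cbln4, Chrm2, Htr2c, Sox21, Bcl11b, En1, En2, Otx1, Isl1, Pcdh11x, Pex5l, Myo3b and Rab3c lost their calls, and Pax5 (-1.16) kept it. Cdh23, A330008L17Rik, Tmem132c, Dock10, Sema3e and Nr2f2 lost theirs at that setting too. Without the Dlx wells of either class, 426 genes passed, 366 of them among the 405.

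The Tac1 wells with Nr4a2 were compared directly with those without it on the 6 plates that had at least 2 wells of both. This minimum was chosen after seeing the data, because no plate had the 5 wells of both classes first required. Of 1643 genes tested, Nr4a2 and Tac1 left out, 93 (5.66%) passed, 60 (3.65%) higher and 33 (2.01%) lower in the wells with Nr4a2. Without E16.5 replicate 2, 3 or 4 the count was 54, 46 and 61.

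The wells with Nr4a2 had more of a protocadherin, of 2 transcription factor genes and of the M3 receptor gene. Pcdh11x stood at 999, 3427, 2158 and 2825 CPM with Nr4a2 and at 75.5, 39.6, 72.5 and 166 CPM without it on E16.5 replicates 1 to 4, and at 2155 and 1682 against 414 and 128 CPM on P0.5 replicates 2 and 3. It rose by 4.40 ± 0.40 (log2, adjusted p = 3.46e-05 in edgeR), and the classes did not overlap. Foxp1 (3.43 ± 0.49), Meis2, a TALE homeobox gene (3.23 ± 0.61), Dpyd (3.21 ± 0.48) and Cntn3, a contactin of the cell surface (2.96 ± 0.59), were the others of the 5 largest rises. Meis2 stood at 916 ± 442 CPM with Nr4a2 and at 178 ± 363 CPM without it (SD, n = 6). Over all Tac1 wells Meis2 did not pass against the other wells (-0.30 ± 0.18, adjusted p = 0.551 in edgeR). Chrm3 (2.40 ± 0.55), Scg2 (1.90 ± 0.34), Gata3 (1.79 ± 0.41) and Nkx2-2 (1.54 ± 0.41) rose as well, with adjusted p between 0.00417 and 0.0456 in edgeR. The call was lost for Gata3 without E16.5 replicate 2, 3 or 4, for Nkx2-2 without any plate other than E16.5 replicate 3, for Cntn3 without E16.5 replicate 2 and for Chrm3 without E16.5 replicate 3.

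The 2 genes of GABA synthesis moved in opposite directions between these parts. Gad2 stood at 945, 784, 1162 and 1022 CPM with Nr4a2 and at 553, 430, 464 and 269 CPM without it at E16.5, and at 762 and 1005 against 724 and 422 CPM at P0.5 (log2 1.08 ± 0.24, adjusted p = 0.0172 in edgeR). Gad1 fell from 1584 ± 500 to 888 ± 263 CPM (SD, n = 6; log2 -0.85 ± 0.22, adjusted p = 0.0363), lower on 6 of 6 plates. Slc32a1 did not pass (0.54 ± 0.31, adjusted p = 0.501). The direction held without each plate in turn, but the call was lost for Gad1 without any plate other than P0.5 replicate 2, and for Gad2 without E16.5 replicate 2, 3 or 4.

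Cdh6 and Lrrtm4 showed the largest falls, that is, the higher levels in the wells without Nr4a2. Cdh6, a cadherin, stood at 0 to 135 CPM in the wells with Nr4a2 and at 103 to 2545 CPM in those without it (log2 -5.36 ± 0.43, adjusted p = 1.25e-05 in edgeR), and Lrrtm4, a postsynaptic adhesion protein, at 13.7 to 186 against 207 to 2827 CPM (-3.99 ± 0.48, adjusted p = 0.000273). Pcp4, a calmodulin regulator (-2.79), Pcdh10, a delta protocadherin (-2.78), and Nxph1, a neurexin ligand (-2.40), completed the 5 largest falls among the genes that were lower on all 6 plates. Zfpm2, a partner of GATA factors (-2.65, lower on 5 of 6 plates), Six3 (-1.78) and Nr2f1 (-1.69) fell too, Six3 not without any plate other than E16.5 replicate 1. The wells without Nr4a2 include both the Six3 wells and the Dlx wells.

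**Figure D5:**
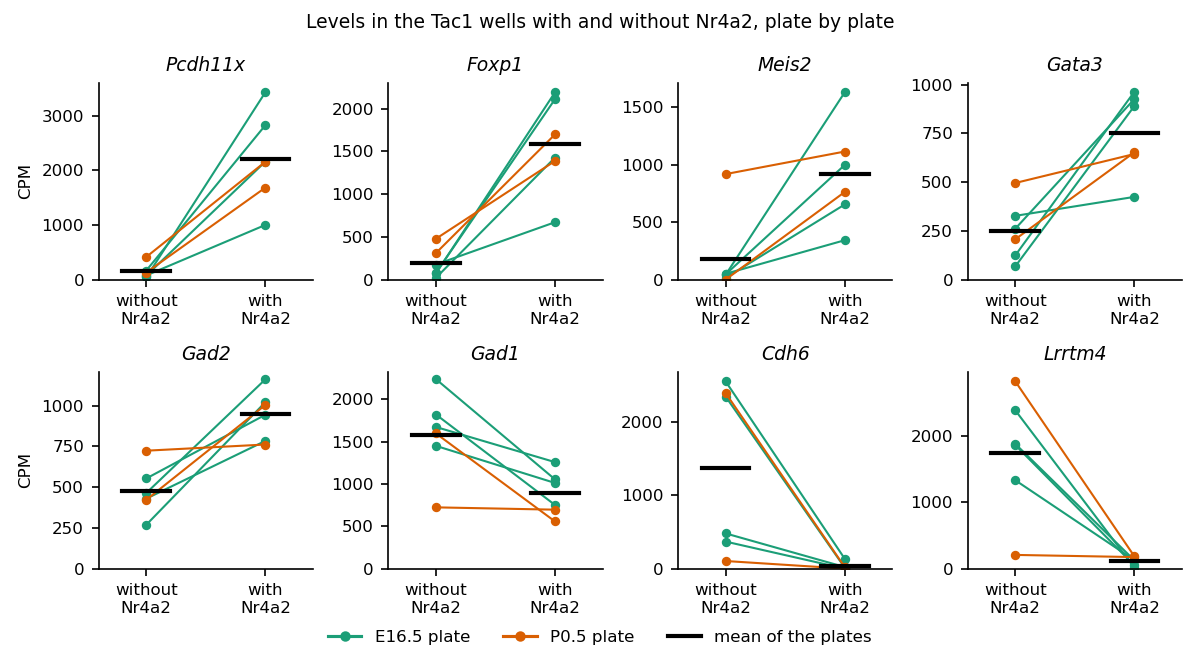
Levels (TMM-scaled CPM, linear axes) of 8 genes in the Tac1 wells without and with Nr4a2, with a line for each of the 6 plates and a bar for their mean. Pcdh11x, Foxp1, Gata3 and Gad2 were higher with Nr4a2 on all 6 plates, and Gad1, Cdh6 and Lrrtm4 were lower on all 6.

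The same comparison for Nkx2-2 could be made on 4 plates, with 34 of 2201 genes passing (1.54%), 22 (1%) higher and 12 (0.545%) lower in the Tac1 wells with Nkx2-2. Nr4a2 was among the genes that rose (log2 4.31 ± 0.81, adjusted p = 0.032 in edgeR), at 521 to 1320 CPM with Nkx2-2 and 0 to 249 CPM without it. Pcdh11x (4.50 ± 0.47), Zmat4 (3.71 ± 0.49), Foxp1 (2.89 ± 0.55), Chrm3 (2.68 ± 0.51), Syt4 (2.55 ± 0.41) and Scg2 (2.21 ± 0.44) rose too. Ell2 had 116 counts with Nkx2-2 and 1 without it, or 1.18% of the level (exact 95% interval 0.0296% to 6.70%), and Dpyd had 131 and 2 (2.09%, 0.250% to 7.69%). Zfhx3, a zinc finger homeobox gene (-3.04), Grik1, a kainate receptor subunit (-2.98), Sox5 (-2.73), Gpc6, a glypican (-2.66), and Prkce, a protein kinase C (-2.51), fell. These calls rest on few wells. Each named gene other than Pcdh11x lost its call without at least 1 plate, and the count was 70 without E16.5 replicate 1, 3 without E16.5 replicate 2, 21 without E16.5 replicate 4 and 17 without P0.5 replicate 3, and 2 where a well needed 2 Nkx2-2 counts.

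To ask what goes with Tac1 among wells that share Nkx2-2, the Tac1 wells with Nkx2-2 were compared with the other Nkx2-2 wells on the 3 plates with at least 5 wells of both (E16.5 replicates 3 and 4 and P0.5 replicate 2). Of 6826 genes tested, 275 (4.03%) passed, 115 (1.68%) higher and 160 (2.34%) lower in the Tac1 wells. Without E16.5 replicate 3 the count was 171, and DESeq2 called 149.

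Nr4a2 again rose most among the Nkx2-2 wells, at 945, 1217 and 789 CPM in the Tac1 wells against 33.4, 16.1 and 35.6 CPM in the others (log2 5.28 ± 0.28, adjusted p = 4.16e-10 in edgeR). Calb1, the calcium-binding protein calbindin (4.41 ± 0.48), Ell2 (4.14 ± 0.34), Pex5l (3.88 ± 0.40) and Pcsk1 (3.58 ± 0.44) rose, and so did Foxp1 (2.11 ± 0.16), Irs4 (2.10 ± 0.56), Chrm3 (1.95 ± 0.19), Pcdh11x (1.72 ± 0.19), Syt4 (1.23 ± 0.20) and Scg2 (1.14 ± 0.18). Calb1 rested on 28 counts in the Tac1 wells and 15 in the others, its fold change was 1.85 (adjusted p = 0.0259 in edgeR) on the plates with at least 2 wells of both classes, and it did not pass over all wells (0.28 ± 0.43). Chrm2 stood at 25.8, 26.1 and 0 CPM in the Tac1 wells against 212, 372 and 171 CPM (-3.50 ± 0.37), and Sst at 17.2, 52.2 and 96.2 against 495, 435 and 312 CPM (-3.47 ± 0.37). No value of the Tac1 wells reached the lowest of the other wells for either gene.

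Genes nearly absent from the Tac1 wells with Nkx2-2 were found in the other Nkx2-2 wells. Sdk2, a sidekick adhesion molecule, and Mme, the peptidase neprilysin, which breaks down substance P, were at 0 counts in the Tac1 wells, against 213 and 166 counts in the others. With a floor of 3 counts over the class, they were at least 5.84-fold and 4.55-fold lower, and Mme did not pass with DESeq2. Id2, an inhibitor of basic helix-loop-helix factors, Otx1 and Sox14 had 1 count each, or 2.07% (exact 95% interval 0.0522% to 11.6%), 2.42% (0.0611% to 13.5%) and 3.17% (0.0800% to 17.8%) of the level in the others. Nr2f2 (-3.97), Bcl11b (-2.96), Npy (-2.71), Cbln4 (-2.17) and Vgf (-1.74) fell, Npy and Sox14 not without E16.5 replicate 3, and Gata3 (-0.09 ± 0.17), Gad1 (-0.02 ± 0.17) and Slc32a1 did not pass. Gad2 did not pass either (0.54 ± 0.16, adjusted p = 0.0842 in edgeR), and was higher on 3 of 3 plates.

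Between stages, few genes differed within the Tac1 wells, of which 37 came from E16.5 and 21 from P0.5. The cell names carry a second plate label that gives another stage for 4 of the 7 VGAT plates. The first was used, and the stage results rest on it. Of 4111 genes tested, 3 (0.073%) passed in edgeR, 1 (0.0243%) higher and 2 (0.0486%) lower at P0.5, whereas for 503 (12.2%) the levels of the 4 E16.5 and the 3 P0.5 plates did not overlap.

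Tcf7l2 showed the largest stage difference. It stood at 1198, 338, 823 and 885 CPM in the Tac1 wells of E16.5 replicates 1 to 4 and at 12.7, 35.4 and 0 CPM in those of P0.5 replicates 1 to 3 (log2 P0.5 minus E16.5 -6.06 ± 0.66, adjusted p = 0.00131 in edgeR). The ranges did not overlap. Rbfox1, a splicing regulator, fell from 925 ± 169 (SD, n = 4) to 156 ± 122 CPM (SD, n = 3; log2 -2.48 ± 0.38, adjusted p = 0.0306 in edgeR), and Trank1 rose from 64.1 ± 22.9 to 232 ± 29.0 CPM (1.85 ± 0.30, adjusted p = 0.0416). No gene passed as higher at P0.5, Trank1 included, without E16.5 replicate 3 or 4 or P0.5 replicate 2 or 3. Calb1 (2.45 ± 0.43, adjusted p = 0.0532 in edgeR), at 8.88 to 52.1 CPM at E16.5 and 102 to 256 CPM at P0.5, and Nr4a2 (-0.43 ± 0.26, adjusted p = 0.570) did not pass.

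The stage difference of Tcf7l2 went beyond that of the other wells of the same plates. In those wells Tcf7l2 stood at 367 to 596 CPM at E16.5 and at 168 to 321 CPM at P0.5, and the interaction of class and stage was -5.00 ± 0.55 (log2, adjusted p = 0.000272 in edgeR), the only 1 of 9425 genes to pass (0.0106%). The interaction did not pass for Nkx2-2 (0.77 ± 0.28), Nr4a2 (-0.20 ± 0.60) or Slc32a1 (-0.21 ± 0.32). The wells with at least 20 Tcf7l2 counts were 2, 1, 3 and 2 of the Tac1 wells at E16.5 and 0 on every P0.5 plate, and 6 of these 8 held at least 5 Six3 counts. Tac1 wells with at least 5 Six3 counts numbered 3, 1, 4 and 3 at E16.5 and 1, 0 and 1 at P0.5, and the part of this make-up in the Tcf7l2 difference was not tested. Without E16.5 replicate 2 the stage comparison gave 9 calls, and without E16.5 replicate 3 or P0.5 replicate 2 it gave 1. The interaction passed for 2 genes without E16.5 replicate 4 and for 3 without P0.5 replicate 3.

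Because Nr4a2 binds DNA as a monomer at the NBRE element, the promoters of Tac1 and of the 10 genes with the largest rise were searched for its letters, AAAGGTCA, on both strands. The RefSeq promoter windows of the build used here, 250 bases before to 50 after the start, were present for 8 of these 11 genes. None held the letters, which occur in 1.51% of 32851 promoter windows, and the search says nothing of binding elsewhere.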

How the data were processed

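Single tdTomato+ cells were sorted into 384-well plates and sequenced with SORT-seq. The authors mapped reads with STAR to the mouse genome (mm10, GRCm38) and deposited tables of expected counts per gene and well, which are molecule counts corrected for barcode collisions and need not be whole. The table of exonic and intronic counts together was used, and the table of spliced counts as an alternative. It holds 32787 entries, of which 92 ERCC spike-ins and 34 mitochondrial genes were left out of library sizes and tests, and 95 gene symbols occur more than once. Whether counting used strand is not given in the sources used here.

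The filter on wells asked for 2000 genes or more, no more than 50000 counts and less than 15% mitochondrial counts. Tac1 wells had at least 3 rounded Tac1 counts. Sums of counts per plate and class were rounded. A plate entered with at least 5 wells of each class, or 2 in the splits by Nr4a2 and Nkx2-2. The test was the quasi-likelihood test of edgeR 4.0.16 (R 4.3.3) with the plate as block, TMM factors, the filterByExpr filter and Benjamini-Hochberg adjustment over all genes tested at a threshold of 0.05. Levels are CPM, which edgeR computes from the sums. Shares were compared after thinning wells to 4000 counts with an exact two-sided sign-flip test over the 7 plates, and stages with an exact permutation test (scipy 1.17.1). Other tools were Python 3.11.15, numpy 2.4.6, pandas 2.3.3, matplotlib 3.10.9 and DESeq2 1.42.0. GRCm38 annotation placed 32609 of 32661 identifiers.

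The 58 Tac1 wells and the 24 gene lists (273 entries) were chosen with earlier results of these data known. Genes named were the 10 with the largest change in each direction among those past the threshold and changed one way on every plate (5 in comparisons after the first), with Tac1, Nr4a2, Nkx2-2 and Slc32a1, up to 4 members of each list with the lowest p, and members that a count turns on. Some genes that this rule names are not reported here. Tested on simulated counts with 100 genes changed at each size, the first comparison recovered 81% of 2-fold and 99% of 4-fold changes among 9221 genes, the Nr4a2 split 57% and 74% among 1457, the Nkx2-2 split 25% and 73% among 1970, and the comparison among Nkx2-2 wells 41% and 93% among 6458. Alternatives were DESeq2, RLE factors, no filter, each plate left out, spliced counts, other Tac1 minimums, thinned wells, no plate block, other detection limits and subsets of the Tac1 wells.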

Additional observations from a re-analysis of the deposited data

Results flagged for a closer look

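Over the 4 E16.5 plates, 47 values were looked at, gene levels in the Tac1 wells and shares of wells. Of these, 5 had 1 plate far from the other 3, all of them gene levels in the Tac1 wells. Chance gives about 1 in 20 such values, a rate that cannot be applied to the 4 genes at 0 on the other 3 plates, where any count sets a plate apart. Tmem132c stood at 3.62 CPM on E16.5 replicate 2 and at 0 on the others, and Cdh20 and A330008L17Rik stood at 7.23 CPM on that plate and at 0 on the others. Maf stood at 26.6 CPM on E16.5 replicate 4 and at 0 on the others. Sst stood at 301 CPM on E16.5 replicate 1, with a median of 32.5 CPM on the others, and 1 well held 30 of its counts.

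The Tac1 contrast of Tcf7l2 differed between the stages by -5.00 (log2, P0.5 minus E16.5) in the test of the interaction.

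Wells with Tac1 also appeared on the plates sorted for both tdTomato and GFP (VGAT+Pitx3), which enter no comparison. At least 3 Tac1 counts were found in 11 of 304 kept wells of the E16.5 plate and in 3 of 271 of the P0.5 plate.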

How the results depend on the processing

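The 405 genes called between Tac1 and other wells became 676 with no filter, 109 with wells thinned to 4000 counts, 49 with wells from 1 Tac1 count, 685 with only the Nr4a2 wells and 92 with only the wells without Nr4a2, and 307 to 418 with 1 plate left out. The stage count of 3 became 14 with DESeq2, 72 with no filter, 5 with spliced counts and 1 to 9 with 1 plate left out. With a replicate block it became 16, but the numbers only name plates and pair no samples. The interaction count of 1 became 24 with no filter and 1 to 3 with 1 plate left out. The 93 calls of the Nr4a2 split became 261 with no filter, 53 with spliced counts and 46 to 110 with 1 plate left out. The 34 of the Nkx2-2 split became 130, 21 and 3 to 70, and 2 with wells from 2 Nkx2-2 counts. The 275 among Nkx2-2 wells became 149 with DESeq2, 183 with spliced counts, 424 with 2 wells per class and 171 to 355 with 1 plate left out. The Nkx2-2 share difference was 26.6 to 38.2 points with 1 plate left out. The cause of these moves was not tested.

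From 1 Tac1 count, Sema3e (0.18), Six3 (0.11), Nr2f2 (0.10), Slc32a1 (0.078) and Gata3 (0.00093) turned positive. In the wells without Nr4a2, Pcdh11x (-1.54), Foxp1 (-1.54), Gad2 (-0.53), Dpy19l1 (-0.41), Pcsk1n (-0.24) and Chrm3 (-0.087) turned negative. Gad1, which did not pass, was -0.083 with no filter, -0.000385 with spliced counts, -0.093 from 5 Tac1 counts, -0.12 from 2 per 10000, -0.026 without Dlx wells, -0.32 with only Nr4a2 wells and -0.039 to 0.094 with 1 plate left out. Gata3, which did not pass, was 0.023 with spliced counts, 0.24 from 5 Tac1 counts, 0.10 from 2 per 10000, 0.0064 without Dlx wells, 0.35 with only Nr4a2 wells and -0.11 to 0.057 with 1 plate left out. Of 42 named genes of the first comparison, 5 (Nr4a2, Ell2, Pcsk1, Vegfc and Maf) kept direction and call under the 16 to 18 alternatives that gave them a value, not counting for Nr4a2 the wells picked for holding it, and the 4 that rose were not tested in only the wells without Nr4a2. So did 11 of 18 in the Nr4a2 split, 0 of 14 in the Nkx2-2 split and 16 of 19 among Nkx2-2 wells. The splits with 5 wells per class and plate could not be run, since no plate had them. The Tac1 wells of a plate number 5 to 13, and genes under the count filter were not tested.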
